A study of Mus with 4 samples.

Results

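The genes described here burn fatty acids or answer to the lipid-sensing PPAR receptors, and they were followed in subcutaneous kidney tumors of mice on 2 diets. They were chosen by name from a list of 31 genes of mitochondrial import, beta-oxidation, electron transfer, peroxisomal oxidation and PPAR signalling. The array annotation names 27 of them, out of 19505 named genes. Acsl1, Etfb, Ppard and Ucp2 are not among its names and were left out. Renca, a line of mouse renal adenocarcinoma cells, had been made to express stably either a hairpin that targets Nrf3 (shNrf3) or a control one (shCtrl), and was grown under the flank skin of male BALB/cCrSlc mice for 2 weeks. The mice, bought at 4 to 6 weeks of age, had eaten a high-fat diet (HFD, HFD-60) or normal chow (NC, CE-2) for 17 weeks. The groups are shNrf3-HFD, shCtrl-HFD, shNrf3-NC and shCtrl-NC, with 1 Affymetrix array of whole tumor RNA in each. Whether 1 tumor or a pool was hybridized is not stated, nor how many hairpins or clones stand behind shNrf3. The hairpin acts in the tumor cells only, while the RNA also comes from host cells inside the tumor.

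Long-chain fatty acids enter mitochondria as carnitine esters: CPT1 on the outer membrane makes the ester, the carrier SLC25A20 takes it across the inner membrane, and CPT2 turns it back into acyl-CoA. Chain-length specific acyl-CoA dehydrogenases then begin each round of beta-oxidation and pass electrons through ETF and its oxidoreductase ETFDH to the respiratory chain, while isomerases and a reductase prepare unsaturated chains. PPAR receptors are nuclear receptors that fatty acids activate and that switch on many of these genes, together with Pdk4, Angptl4 and Plin2. Proximal tubule cells, which line the kidney's reabsorbing segment, are known for their high rate of fatty acid oxidation.

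Values are log2 levels, so that a difference of 1 is 2-fold, and a level of one probe set is not set against that of another. With 1 array in each group, differences between 2 arrays were not checked in replicates, and 4 arrays set the limit of precision. A difference of 1.5-fold or more (0.585 on the log2 scale) is counted below as a description, without a test. A reading below the median of its array's negative control rows (5.35 to 5.39) was set to that median, and no difference is given where both readings lay below it. The targeted gene Nfe2l3, which encodes Nrf3, had a level of 6.05 in the tumor labelled shNrf3-HFD and 5.77 in that labelled shCtrl-HFD, against the direction of the labels. It read 5.56 on the array labelled shNrf3-NC and 6.22 on that labelled shCtrl-NC. These readings lie close to the negative control rows, so every direction by construct rests on the labels of the arrays and not on a measured loss of Nfe2l3.

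The arrays also differed in spread and in level. The SD over all rows was 3.11 for shNrf3-HFD, 3.21 for shCtrl-HFD, 3.17 for shNrf3-NC and 3.02 for shCtrl-NC. A filter on level kept 10021 genes, and their median was 8.72 for shNrf3-HFD, 8.93 for shCtrl-HFD, 8.82 for shNrf3-NC and 8.61 for shCtrl-NC. The median difference over these genes was -0.14 for shNrf3 minus shCtrl in HFD, 0.14 in NC, -0.03 for HFD minus NC with shNrf3 and 0.26 with shCtrl. A member's difference is to be read against that shift. For the members the results turn on, values after centring each array on the median of the genes past the filter are therefore given as well.

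In outline, Cpt1a was higher with shNrf3 in both diets and higher in HFD for both constructs, and Decr1 was higher with shNrf3 in both diets. The other members that passed 1.5-fold did so in 1 diet or with 1 construct, or in opposite directions. These differences are smaller than the spread of the negative control rows, whose middle 95% of differences by construct ran from -2.52 to 2.64 in HFD and -2.68 to 2.66 in NC. By diet that spread was -2.44 to 2.54 with shNrf3 and -2.71 to 2.73 with shCtrl. The 95th percentile of the control rows was 8.97 to 9.35 on the 4 arrays, and all readings of Decr1, Acads, Eci1 and Slc25a20 and all but the shNrf3-HFD reading of Cpt1a lay below that of their array. Differences of these genes are therefore within what control rows show between arrays. Of the 27 members, 21 lay above the control median on all 4 arrays, 1 (Pdk4) on 2 of them, and 5 lay below it on all 4. The same 21 members passed the filter on level. Of the 108 member differences in the 4 comparisons, 22 changed sign under another scaling, and none of those had passed 1.5-fold. The plot of levels shows each member on each array.

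**Figure D1:**
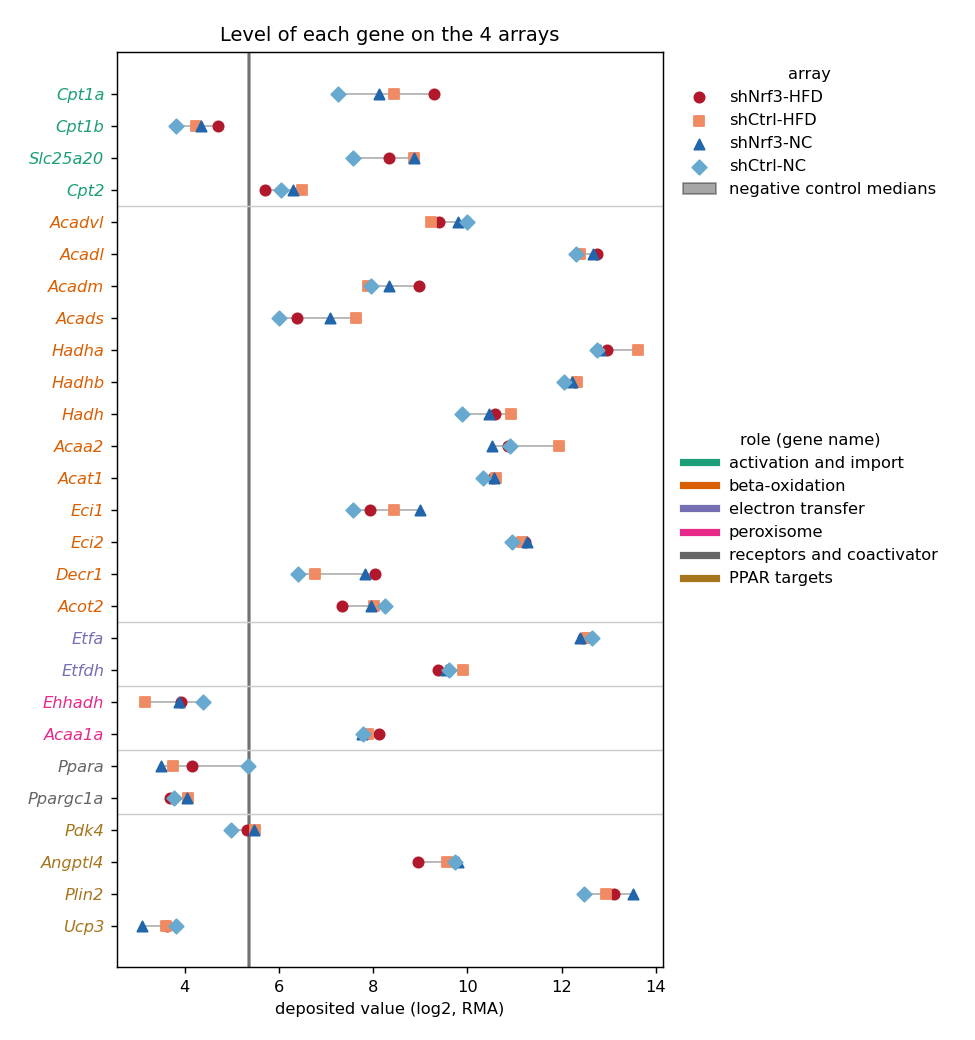
Log2 level (x axis) of each of the 27 genes (rows, name coloured by role) on the 4 arrays, 1 point per array. The grey band marks the negative control medians (5.35 to 5.39): Cpt1b, Ehhadh, Ppara, Ppargc1a and Ucp3 lie below it on every array, while Cpt1a and Decr1 lie above it with shNrf3 to the right of shCtrl in both diets.

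Among the genes of activation and import, Cpt1a stood out. It encodes the CPT1 form of liver and most other tissues and makes the regulated step of import. Cpt1a read 9.28 on the shNrf3-HFD array, 8.45 on shCtrl-HFD, 8.13 on shNrf3-NC and 7.26 on shCtrl-NC. The HFD readings were both above the NC readings, and within each diet shNrf3 was above shCtrl. With shNrf3 it was 1.79-fold higher in HFD (0.84) and 1.83-fold higher in NC (0.87). In HFD it was 2.23-fold higher than in NC with shNrf3 (1.15) and 2.28-fold higher with shCtrl (1.19). The difference by construct was thus nearly the same in both diets, with a construct by diet difference of -0.03. After centring on the median of genes past the filter, the 4 differences in that order were 1.05, 0.66, 1.26 and 0.87, and Cpt1a remained 1.5-fold or more higher in each. Ranked by the smaller of its HFD minus NC differences with the 2 constructs, Cpt1a was 17th from the top of 10021 genes. Ranked by the smaller of its shNrf3 minus shCtrl differences in the 2 diets, it was 120th. Both ranks were taken before any centring.

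The carnitine-acylcarnitine carrier gene Slc25a20 behaved otherwise. It read 8.34 on shNrf3-HFD, 8.86 on shCtrl-HFD, 8.86 on shNrf3-NC and 7.56 on shCtrl-NC. The shCtrl-NC reading was the lowest, and the highest readings, on shNrf3-NC and shCtrl-HFD, were alike. In NC it was 2.46-fold higher with shNrf3 (1.30), whereas in HFD the difference was -0.51. In HFD with shCtrl it was 2.45-fold higher than in NC (1.29), against -0.52 with shNrf3. Cpt2, the enzyme of the inner membrane, read 5.70 on shNrf3-HFD, 6.49 on shCtrl-HFD, 6.29 on shNrf3-NC and 6.04 on shCtrl-NC. These readings were not far above the control medians, with a difference of -0.79 by construct in HFD and 0.25 in NC. After centring on the genes past the filter the HFD difference of Cpt2 was -0.57, just under 1.5-fold. Cpt1b, the CPT1 form of muscle and brown fat, read 3.81 to 4.71, below the control median on all 4 arrays.

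In the beta-oxidation group, Decr1 had the largest difference by construct that both diets shared. It encodes the mitochondrial 2,4-dienoyl-CoA reductase, an auxiliary enzyme needed for polyunsaturated chains. Decr1 read 8.04 on shNrf3-HFD, 6.76 on shCtrl-HFD, 7.82 on shNrf3-NC and 6.39 on shCtrl-NC. Both shNrf3 readings were above both shCtrl readings. It was 2.42-fold higher with shNrf3 in HFD (1.28) and 2.69-fold higher in NC (1.43), while the diet differences were 0.22 with shNrf3 and 0.37 with shCtrl. After centring on the genes past the filter, the differences by construct were 1.49 in HFD and 1.22 in NC. By the smaller of both differences before any centring, it ranked 34th from the top of 10021 genes.

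The 4 acyl-CoA dehydrogenase genes, which differ in the chain length of their substrate, did not move together. The medium-chain gene Acadm read 8.97 on shNrf3-HFD, 7.89 on shCtrl-HFD, 8.34 on shNrf3-NC and 7.95 on shCtrl-NC. Its shNrf3-HFD reading stood above the others, with differences by construct of 1.08 in HFD and 0.39 in NC. With shNrf3 it was higher in HFD than in NC by 0.63, against -0.06 with shCtrl. The short-chain gene Acads read 6.39 on shNrf3-HFD, 7.62 on shCtrl-HFD, 7.08 on shNrf3-NC and 5.99 on shCtrl-NC. Acads was lower with shNrf3 in HFD (-1.23) and higher with shNrf3 in NC (1.09). By diet it was lower in HFD with shNrf3 (-0.69, and -0.58 after centring on the genes past the filter) and higher in HFD with shCtrl (1.63). The very-long-chain gene Acadvl read 9.39 on shNrf3-HFD, 9.23 on shCtrl-HFD, 9.80 on shNrf3-NC and 9.99 on shCtrl-NC. Both its HFD readings were below its NC readings, by -0.40 with shNrf3 and -0.76 with shCtrl, so that the second alone passed 1.5-fold. The long-chain gene Acadl, which read 12.30 to 12.74, differed by 0.36 by construct in each diet and by 0.08 by diet with each construct.

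The trifunctional protein, made of HADHA and HADHB, carries long chains through the steps after the dehydrogenase. Hadha read 12.97 on shNrf3-HFD, 13.63 on shCtrl-HFD, 12.82 on shNrf3-NC and 12.76 on shCtrl-NC, and only the shCtrl-HFD reading stood apart. Its differences were -0.65 by construct in HFD and 0.87 by diet with shCtrl, which became -0.44 and 0.56 after centring on the genes past the filter. Hadhb differed by at most 0.26 in size in any of the 4 comparisons. The short-chain hydroxyacyl-CoA dehydrogenase gene Hadh read 10.60 on shNrf3-HFD, 10.93 on shCtrl-HFD, 10.46 on shNrf3-NC and 9.88 on shCtrl-NC. It was 1.05 higher in HFD with shCtrl, and its difference by construct in NC, 0.583, fell just short of 1.5-fold.

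The thiolase gene Acaa2, whose product cleaves acetyl-CoA from the chain, read 10.86 on shNrf3-HFD, 11.94 on shCtrl-HFD, 10.53 on shNrf3-NC and 10.90 on shCtrl-NC. The shCtrl-HFD reading was the highest, 1.04 above shCtrl-NC, and with shNrf3 it was lower in HFD (-1.08) and in NC (-0.37). After cyclic loess between arrays the NC difference was -0.59, which passed 1.5-fold. Acat1, the acetoacetyl-CoA thiolase, read 10.34 to 10.62, with differences of -0.08 to 0.28.

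The enoyl-CoA isomerase gene Eci1, whose product shifts double bonds of unsaturated chains, read 7.94 on shNrf3-HFD, 8.45 on shCtrl-HFD, 8.99 on shNrf3-NC and 7.57 on shCtrl-NC. It was 2.66-fold higher with shNrf3 in NC (1.41) and differed by -0.50 in HFD. By diet it was lower in HFD with shNrf3 (-1.04) and higher in HFD with shCtrl (0.87, and 0.56 after centring on the genes past the filter). Eci2, an isomerase also found in peroxisomes, read 10.94 to 11.26, with no difference over 0.32 in size. The thioesterase gene Acot2, which releases free fatty acids in mitochondria, read 7.34 on shNrf3-HFD, 8.02 on shCtrl-HFD, 7.96 on shNrf3-NC and 8.26 on shCtrl-NC. The shNrf3-HFD reading was the lowest, with differences of -0.68 by construct in HFD and -0.62 by diet with shNrf3. These became -0.47 and -0.51 after centring on the genes past the filter. Acot2 has a near-identical copy in Acot1, so its probe set is uncertain.

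The electron transfer genes differed little. Etfa, a subunit of the electron transfer flavoprotein, read 12.45 on shNrf3-HFD, 12.55 on shCtrl-HFD, 12.39 on shNrf3-NC and 12.64 on shCtrl-NC, with differences of -0.25 to 0.06. Etfdh read 9.38 on shNrf3-HFD, 9.91 on shCtrl-HFD, 9.55 on shNrf3-NC and 9.61 on shCtrl-NC, and its largest difference was -0.53, by construct in HFD. Of the peroxisomal members, the bifunctional enzyme gene Ehhadh read 3.15 to 4.38, below the control median on every array. The peroxisomal thiolase gene Acaa1a, which has the close copy Acaa1b, read 8.13 on shNrf3-HFD, 7.90 on shCtrl-HFD, 7.76 on shNrf3-NC and 7.79 on shCtrl-NC. Its largest difference was 0.37, by diet with shNrf3.

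The genes of the receptors and the coactivator lay at or below background. Ppara, the receptor of fasting liver, read 4.15 on shNrf3-HFD, 3.74 on shCtrl-HFD, 3.50 on shNrf3-NC and 5.35 on shCtrl-NC, the last just under that array's control median of 5.38. Ppargc1a, a coactivator of mitochondrial genes, read 3.68 to 4.08. Readings at this level bear on no difference and do not show that the gene is silent.

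Among the PPAR targets, the lipid droplet coat gene Plin2 read 13.11 on shNrf3-HFD, 12.94 on shCtrl-HFD, 13.52 on shNrf3-NC and 12.47 on shCtrl-NC. It was 2.08-fold higher with shNrf3 in NC (1.06), against 0.17 in HFD. Angptl4, a secreted inhibitor of lipoprotein lipase, read 8.95 on shNrf3-HFD, 9.57 on shCtrl-HFD, 9.80 on shNrf3-NC and 9.74 on shCtrl-NC. The shNrf3-HFD reading was the lowest, with differences of -0.62 by construct in HFD (-0.40 after centring on the genes past the filter) and -0.85 by diet with shNrf3. Pdk4, the kinase that holds back pyruvate oxidation, read 4.99 to 5.50 and straddled the control medians. Ucp3, a mitochondrial carrier of muscle, read 3.08 to 3.81, below them on all arrays.

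**Figure D2:**
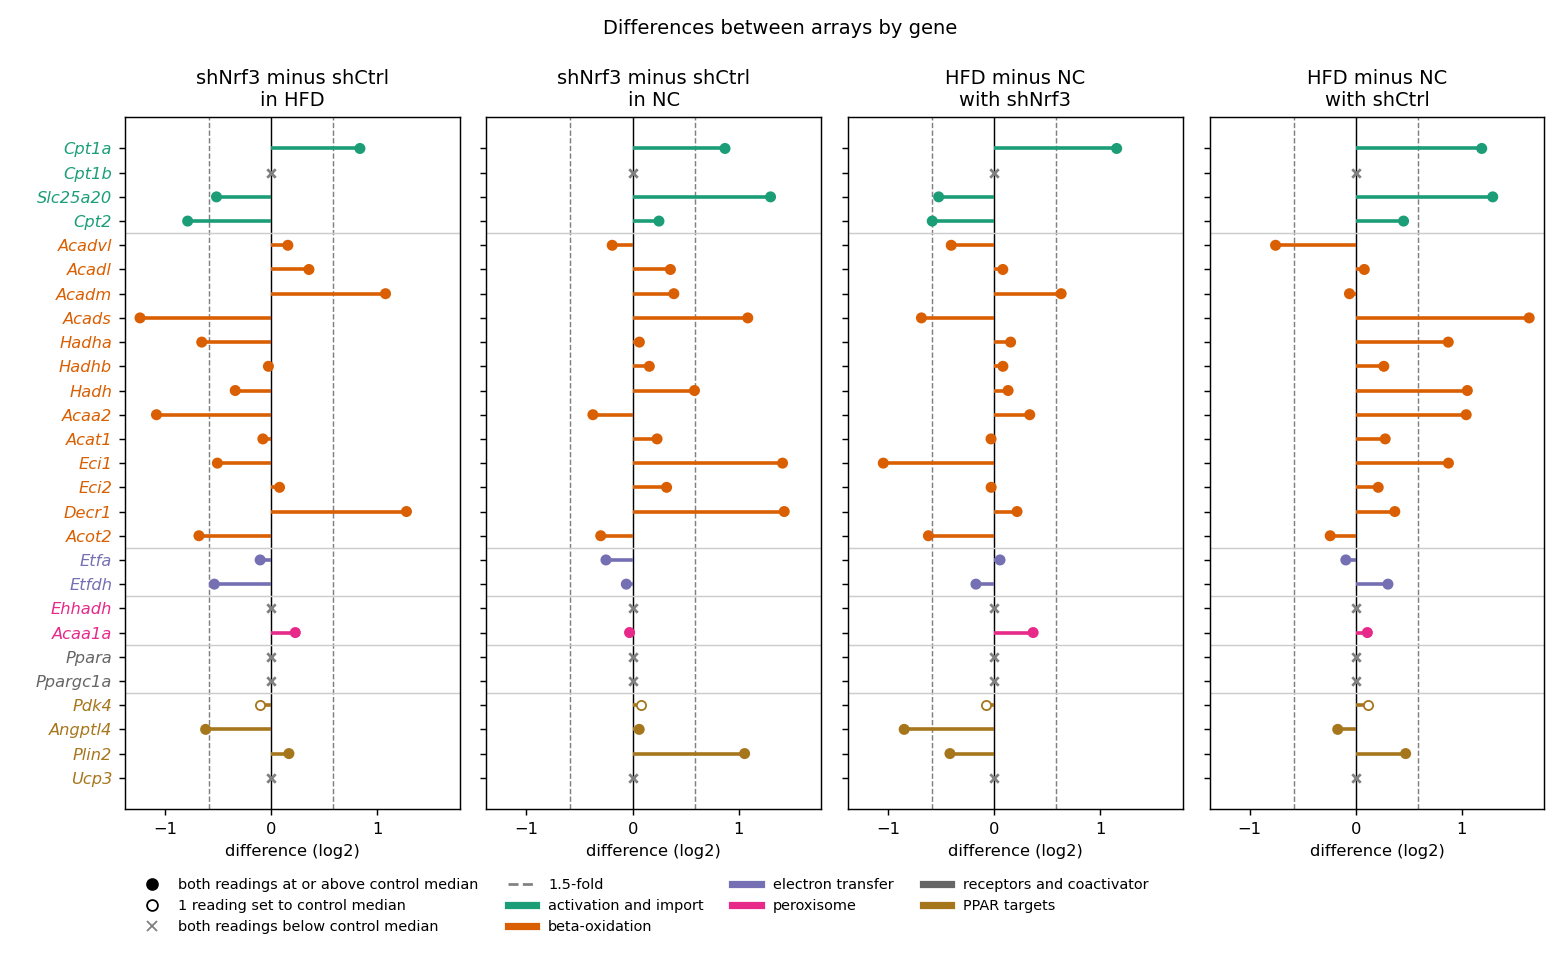
Difference on the log2 scale (x axis) for each of the 27 genes (rows) in the 4 comparisons, 1 array against 1 in each panel; dashed lines mark 1.5-fold, open circles have 1 reading set to the control median and crosses have both readings below it. Cpt1a lies right of the upper dashed line in all 4 panels, and Decr1 in both panels by construct.

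Counted over the list, by construct in HFD, 3 of the 27 members were 1.5-fold or more higher with shNrf3 (Cpt1a, Acadm and Decr1), where 5.19% of all named genes and 9.01% of genes past the filter were. Lower were 6 of 27 (Cpt2, Acads, Hadha, Acaa2, Acot2 and Angptl4), where 11.1% of all named genes and 20.6% of genes past the filter were. After centring on the genes past the filter only Acads and Acaa2 of these were again that much lower. In NC 6 of 27 were higher (Cpt1a, Slc25a20, Acads, Eci1, Decr1 and Plin2), against 14.2% of named genes and 26.7% of genes past the filter. In NC 0 were lower, against 7.97% and 13.5%. All members counted by construct are among the 21 past the filter, so shares of genes past it stand beside counts out of 21. The median over the members was -0.02 in HFD and 0.08 in NC, beside 0.00 over all named genes in each. Over the 21 members past the filter it was -0.10 in HFD and 0.25 in NC, beside -0.14 and 0.14 over all genes past it.

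By diet, with shNrf3, 2 of 27 members were 1.5-fold or more higher in HFD (Cpt1a and Acadm) and 4 lower (Acads, Eci1, Acot2 and Angptl4), where 5.14% of named genes were higher and 7.86% lower. With shCtrl, 7 of 27 were higher in HFD (Cpt1a, Slc25a20, Acads, Hadha, Hadh, Acaa2 and Eci1) and 1 was lower (Acadvl), where 16.6% of named genes were higher and 6.54% lower. Over genes past the filter these shares were 8.78% higher and 14.3% lower with shNrf3, and 31.1% and 10.6% with shCtrl. All members counted by diet are among the 21 past the filter, and with shCtrl a count of 7 higher in 21 is near the 31.1% of all genes there. The median over the members was 0.00 with shNrf3 and 0.21 with shCtrl, and over the 21 past the filter -0.03 and 0.30, beside -0.03 and 0.26 over all genes past it. By role, the 7 higher with shCtrl were 2 of the 4 import genes and 5 of the 13 of beta-oxidation, and 0 of the 10 others. Of these others, Ehhadh, Ppara, Ppargc1a and Ucp3 lay below the control median on all 4 arrays and could not be counted. Pdk4 did not pass the filter, so the split by role is no result about roles.

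Set side by side, the comparisons shared few members. By construct, Cpt1a and Decr1 (2 of 27) were higher by 1.5-fold or more whichever the diet, beside 1.58% of named genes and 3.03% of genes past the filter. Lower in both were 0, beside 1.9% and 3.67%. Acads alone was lower in HFD and higher in NC, beside 2.6% and 5.01%, and 0 ran the other way, beside 0.764% and 1.37%. By diet, Cpt1a alone was higher in HFD with both constructs, beside 1.48% of named genes and 2.74% of genes past the filter, and 0 were lower with both, beside 1.09% and 2.05%. Acads and Eci1 were lower in HFD with shNrf3 and higher with shCtrl, beside 2.49% and 4.79%, and 0 ran the other way, beside 0.641% and 1.15%. The 2 comparisons of each kind have no array in common. Cpt1a, Decr1, Acads and Eci1 are all among the 21 members past the filter.

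**Figure D3:**
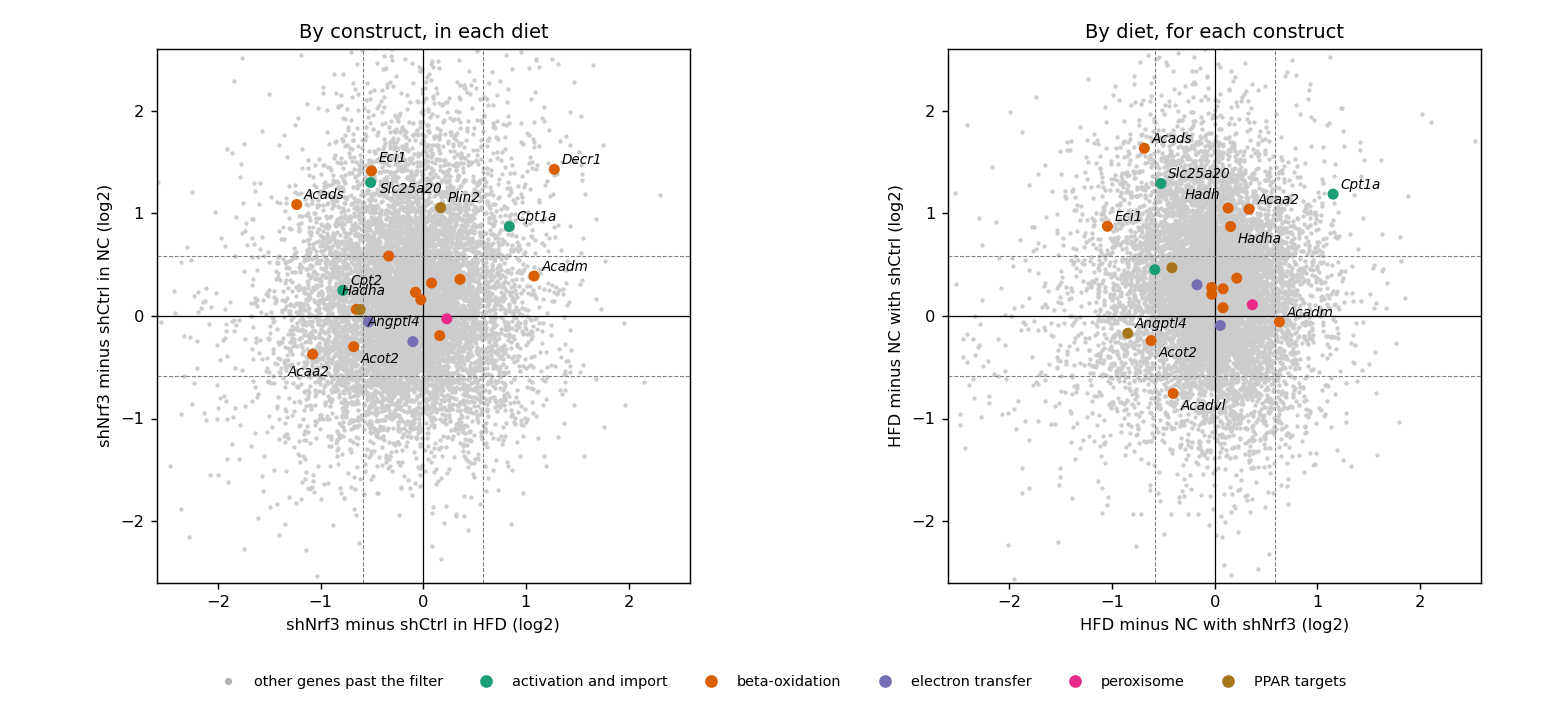
Left, shNrf3 minus shCtrl in HFD (x axis) against the same in NC (y axis); right, HFD minus NC with shNrf3 (x axis) against the same with shCtrl (y axis), all on the log2 scale. Coloured points are the 21 genes past the filter on level and grey points the other genes past it (78 genes on the left and 61 on the right lie beyond the axes); Decr1 and Cpt1a lie in the upper right corner beyond 1.5-fold on the left, and Cpt1a alone on the right.

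The construct by diet difference, the shNrf3 minus shCtrl difference in HFD less that in NC, was below 0 by 1.5-fold or more for 9 of 27 members. They were Slc25a20, Cpt2, Acads, Hadha, Hadh, Acaa2, Eci1, Angptl4 and Plin2, and the share of all named genes was 19.9%. All 9 are among the 21 members past the filter, and the share of genes past the filter was 37%. Acadm alone lay above 0 by that much (0.69), where 8.71% of named genes and 13.7% of genes past the filter did. The lowest values were those of Acads (-2.32), Eci1 (-1.92) and Slc25a20 (-1.81), and after Acadm the highest were those of Acadvl (0.35) and Acaa1a (0.26). After cyclic loess, and after centring on the genes past the filter, 4 lay below. Acads, Eci1 and Slc25a20 kept their sign and a size of 1.39 or more under each of the 3 other scalings (the smallest being -1.39 for Slc25a20 after centring on the genes past the filter). The median over the 21 members past the filter was -0.38, beside -0.30 over all genes past it.

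**Figure D4:**
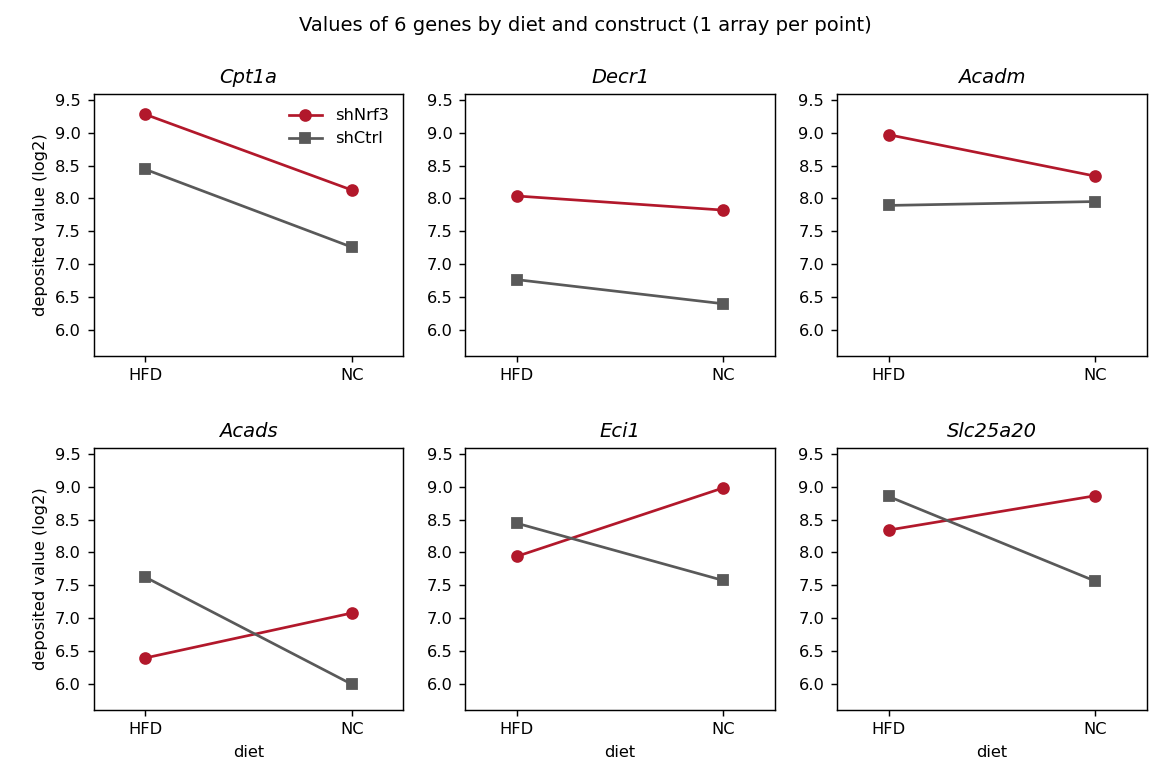
Log2 value (y axis) by diet (x axis) for 6 genes, 1 array per point, shNrf3 in red and shCtrl in grey. The lines of Cpt1a run nearly parallel and those of Decr1 stay apart, while those of Acads, Eci1 and Slc25a20 cross.

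Construct and diet were also fitted additively with limma over the 10021 genes. No member passed an adjusted p of 0.05, and no other gene did (0% called for either term). That fit has 1 residual degree of freedom per gene, the construct by diet interaction, and does not see how tumors of 1 group vary. At an unadjusted p under 0.05 in limma lay 447 genes for construct (4.46%) and 292 for diet (2.91%). For construct these included Decr1 alone of the 21 members (log2 difference 1.35 ± 0.38, SE; adjusted p = 0.961 in limma). For diet they included Cpt1a alone (1.17 ± 0.38, SE; adjusted p = 0.999 in limma), whose limma difference by construct was 0.85 ± 0.38 (SE; adjusted p = 0.961).

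A further list of 66 genes of the same pathway that are not members was followed in the same way, and 59 are named on the array. By construct 2 of 59 were 1.5-fold or more higher with shNrf3 in HFD and 9 lower, and 10 were higher and 7 lower in NC. By diet 3 were higher and 7 lower in HFD with shNrf3, and 11 higher and 4 lower with shCtrl. Among all named genes the shares by construct were 5.19% higher and 11.1% lower in HFD and 14.2% and 7.97% in NC, and by diet 5.14% and 7.86% with shNrf3 and 16.6% and 6.54% with shCtrl. Past the filter were 41 of the 59. By construct 2 of these were higher and 8 lower in HFD, beside 9.01% and 20.6% of all genes past it. In NC 9 were higher and 7 lower, beside 26.7% and 13.5%. By diet 3 were higher and 6 lower with shNrf3, beside 8.78% and 14.3%. With shCtrl 10 were higher and 3 lower, beside 31.1% and 10.6%. Of the 236 differences of this list, 33 changed sign and 41 crossed 1.5-fold over the 4 scalings. Of the 9 genes lower by construct in HFD, Hsd17b10, Acox3, Rxra and Lipe were under 1.5-fold after centring on the genes past the filter. None was higher by construct in both diets, beside 1.58% of named genes and 3.03% of genes past the filter. The carnitine transporter gene Slc22a5 alone (1 of 59) was lower in both, beside 1.9% and 3.67%. It read 5.37 on shNrf3-HFD, 6.35 on shCtrl-HFD, 5.57 on shNrf3-NC and 6.41 on shCtrl-NC (-0.96 or lower in HFD, its shNrf3-HFD reading being below the control median, and -0.84 in NC). By diet the fatty acid transport gene Slc27a1 (0.74 with shNrf3 and 1.13 with shCtrl) and Txnip, an inhibitor of glucose uptake and thioredoxin (0.64 and 1.74), were higher in HFD with both constructs. These are 2 of 59, beside 1.48% of named genes and 2.74% of genes past the filter. Lower with both were 0, beside 1.09% and 2.05%.

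Of all genes past the filter, 36.7% were highest on the shCtrl-HFD array and 24.1% on shNrf3-NC, and the 3 genes with the lowest construct by diet difference in that list were among them, as that difference itself favors. The acyl-CoA thioesterase gene Acot7 read 10.18 on shNrf3-HFD, 11.01 on shCtrl-HFD, 11.00 on shNrf3-NC and 8.95 on shCtrl-NC. Catalase (Cat), the peroxisomal enzyme that removes hydrogen peroxide, read 11.47, 11.92, 12.28 and 10.76 on the arrays in that order, and the triglyceride lipase gene Pnpla2 read 10.09, 11.20, 10.84 and 9.64. In all 3 genes the shCtrl-NC reading was the lowest. With shNrf3 in NC the highest were Acot7 (2.04), Cat (1.52) and Acot13, a mitochondrial thioesterase gene (1.23). Lowest there were Lpin1 (-1.09), a phosphatidate phosphatase that also acts as a coactivator, the kinase gene Pdk2 (-1.07) and the nuclear receptor corepressor gene Nrip1 (-1.02).

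In HFD the highest by construct were Acacb (0.86), whose product makes the malonyl-CoA that inhibits CPT1, Mlycd (0.68), whose product removes it, and Pex19 (0.52). The lowest were the monoglyceride lipase gene Mgll (-1.21 or lower, its shNrf3-HFD reading being below the control median), Pnpla2 (-1.11) and Txnip (-1.09). By diet with shNrf3 the lowest were Pparg, the receptor of fat cells (-1.40 or lower), Lpl (-1.16) and Crat (-1.07), and after Slc27a1 and Txnip the highest was Pex19 (0.61), a peroxisome assembly gene. With shCtrl the highest were Acot7 (2.06), Txnip and Pnpla2 (1.56), and the lowest Nrip1 (-1.33), Fabp3 (-0.81 or lower) and Acacb (-0.77). The construct by diet difference was lowest for Acot7 (-2.87), Pnpla2 (-2.31) and Cat (-1.98) and highest for Nrip1 (1.28), Pex19 (1.18) and Pdk2 (1.03).

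Markers of host tissue that also burns or stores fat moved with some of these differences. In bulk tumor RNA, fewer cells of a type and less RNA per cell cannot be told apart. Marker counts are to be read beside the shares of named genes (and of genes past the filter). By construct these were 5.19% (9.01%) higher and 11.1% (20.6%) lower in HFD, and 14.2% (26.7%) and 7.97% (13.5%) in NC. By diet they were 5.14% (8.78%) higher and 7.86% (14.3%) lower with shNrf3, and 16.6% (31.1%) and 6.54% (10.6%) with shCtrl. Sums of log2 levels were taken over the readings as deposited, also those below the control median, so part of such a sum can be background. The summed log2 level of 10 adipocyte markers (of 12 listed) was 64.4 on shNrf3-HFD, 74.6 on shCtrl-HFD, 80.0 on shNrf3-NC and 69.1 on shCtrl-NC. Above the control median were 5 of the 10 on shNrf3-HFD and 7 on each other array. By construct in HFD, 0 of the 10 passed 1.5-fold upward and 7 downward, and in NC 4 upward and 1 downward, and by diet 0 were higher and 5 lower in HFD with shNrf3 and 5 higher and 1 lower with shCtrl. Lep, Plin4 and Acvr1c lay below the control median on all arrays. Adiponectin (Adipoq) read 8.36 on shNrf3-HFD, 9.70 on shCtrl-HFD, 11.73 on shNrf3-NC and 8.38 on shCtrl-NC. The arrays with the higher adipocyte sums, shNrf3-NC and shCtrl-HFD, are those on which Acads, Eci1 and Slc25a20 were higher. These genes had the lowest construct by diet differences of the members, and that difference itself favors high readings on those arrays. The match was thus favored by how the genes were picked, and the part of fat tissue in their differences was not tested. Cpt1a and Decr1 were highest on shNrf3-HFD, the array with the lowest adipocyte sum, and the part of fat tissue in their differences was not tested either.

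The 17 skeletal muscle markers summed to 86.3 on shNrf3-HFD, 96.1 on shCtrl-HFD, 137.6 on shNrf3-NC and 93.2 on shCtrl-NC. Of these, 16 lay above the control median on shNrf3-NC, against 5 on shNrf3-HFD, 9 on shCtrl-HFD and 7 on shCtrl-NC. By construct 0 were higher and 4 lower in HFD, and 13 were higher and 0 lower in NC. By diet 0 were higher and 14 lower in HFD with shNrf3, and 3 were higher and 1 lower with shCtrl. Muscle also burns fatty acids, and its part in the differences that involve the shNrf3-NC array was not tested. Ryr1 alone lay below the control median on all 4 arrays. Of 7 brown fat markers Ucp1, Cidea, Elovl3 and Otop1 were below it on all 4 arrays, and 0 of 7 were 1.5-fold different in any comparison.

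The 7 macrophage markers (of 8 listed) summed to 78.8 on shNrf3-HFD, 77.5 on shCtrl-HFD, 80.5 on shNrf3-NC and 71.5 on shCtrl-NC. By construct 2 were higher and 1 lower in HFD, and all 7 were higher in NC. By diet 0 were higher and 2 lower in HFD with shNrf3, and 4 were higher and 1 lower with shCtrl. Macrophages also make Plin2, and their part in its difference in NC was not tested. Of the 8 hepatocyte markers Alb, Apoa1, Apoa2, Ttr and Ahsg lay below the control median on all 4 arrays. Fgb, Cyp2e1 and Serpina1a did not: 1 marker lay above it on shNrf3-HFD, 2 on shCtrl-HFD, 2 on shNrf3-NC and 3 on shCtrl-NC. By construct 0 were higher and 1 lower in HFD, and 1 was higher and 0 lower in NC. By diet 0 were higher and 1 lower in HFD with shNrf3, and 0 higher and 2 lower with shCtrl. The 7 endothelial markers summed to 46.6 on shNrf3-HFD, 51.8 on shCtrl-HFD, 47.6 on shNrf3-NC and 54.7 on shCtrl-NC. Above the control median were 6 of the 7 on shCtrl-NC and 5 on each other array. With shNrf3 0 were higher and 3 lower in HFD, and 0 higher and 5 lower in NC. By diet 0 passed 1.5-fold with shNrf3, and 0 were higher and 3 lower in HFD with shCtrl.

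The labelled cell type was checked in the same way. The epithelial genes Epcam, Cdh1, Krt8, Krt18 and Krt19 read above the control median on all 4 arrays and summed to 62.3 on shNrf3-HFD, 65.5 on shCtrl-HFD, 60.2 on shNrf3-NC and 62.7 on shCtrl-NC. By construct 0 of the 5 were higher and 3 lower in each diet, with medians of -0.69 in HFD and -0.64 in NC. By diet 2 were higher and 1 lower in HFD with shNrf3, and 3 higher and 0 lower with shCtrl. By construct 3 of the 5 were thus lower with shNrf3, where Cpt1a and Decr1 were higher. By diet more of them were higher than lower in HFD, where Cpt1a was higher with both constructs and Decr1 was under 1.5-fold. The part of tumor cell content in the differences of Cpt1a and Decr1 was not tested. Of 9 markers of renal tubule, 8 lay below the control median on every array (Slc34a1, Lrp2, Slc22a6, Slc5a2, Umod, Pax8, Pax2 and Cdh16), and Cubn lay above it on shCtrl-NC alone, so defining tubule markers were not detected above background.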

How the data were processed

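RNA of whole tumors (100 ng, labelled with biotin per the labels' protocols) was hybridized to 4 Affymetrix arrays, 1 per group. The authors deposited log2 values, for which the submitters' processing notes name Affymetrix Expression Console and RMA; their versions and a genome build were not found in the labels or headers, so no coordinates are printed. An array gives no counts; its signal is bounded by 5222 negative control rows, whose 95th percentiles were 8.97 to 9.35.

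Of 22206 transcript rows 19572 have 1 gene symbol in the platform annotation, 0 have several and 2634 are unnamed here. All 19572 Entrez IDs matched RefSeq genes of GRCm38.p6, used for names only. The probe set with the highest mean stands for a gene (0 members have several). The filter on level keeps genes whose mean is at or above the median row mean (5.73). Differences were computed with pandas 2.3.3 in Python 3.11.15, and limma 3.58.1 in R 4.3.3 fitted construct and diet (Benjamini-Hochberg adjustment over all genes past the filter), tested on simulated data.

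All members are accounted for. Values on every array are given for members that passed 1.5-fold in 1 direction in both comparisons of a kind, for the 3 highest and 3 lowest of each comparison, and for some others, named after their values were seen; of the other pathway genes the 3 highest and 3 lowest are named, with those shared by both comparisons of a kind. The members and lists were chosen with earlier results of these data known. Alternatives were 3 scalings, no floor, a 2-fold threshold, 2 filters, the mean over probe sets and limma's trend and robust options.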

Additional observations from a re-analysis of the deposited data

Results flagged for a closer look

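Some genes differed by 1.5-fold or more in opposite directions under the same contrast. Among the members, Acads was lower with shNrf3 in HFD and higher with shNrf3 in NC, and Acads and Eci1 were lower in HFD with shNrf3 and higher in HFD with shCtrl. Their construct by diet differences were -2.32 for Acads and -1.92 for Eci1. Of the other pathway genes, Acot7 (-2.87) and Pnpla2 (-2.31) were opposed both by construct and by diet, Lipe (-1.72) and Hsd17b10 (-1.33) by construct, and Cat (-1.98) by diet. After centring on the genes past the filter, Acads by diet with shNrf3 was -0.58 and Eci1 by diet with shCtrl 0.56, so that neither was then opposed by diet at 1.5-fold. Lipe by construct in HFD was -0.50 after cyclic loess and -0.43 after that centring, and Hsd17b10 was -0.44 in HFD and 0.45 in NC after loess and -0.37 and 0.53 after that centring, so that neither was then opposed by construct. Acads by construct, and Acot7, Pnpla2 and Cat, were opposed at 1.5-fold under the 3 other scalings too. With 1 array per group these differences were not tested. In each of the 7 genes shCtrl-NC had the lowest reading, as it had in 41.6% of the 10021 genes past the filter. The 7 were picked for opposite differences, which leave only shNrf3-HFD or shCtrl-NC as the lowest array. That share over unselected genes is therefore no like comparison.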

How the results depend on the processing

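Cpt1a (in all 4 comparisons) and Decr1 (in both by construct) stayed 1.5-fold or more higher under the 3 other scalings. Of the 108 member differences 22 changed sign over the 4 scalings and 11 crossed 1.5-fold; the cause was not tested. One scaling, centring on the genes past the filter, was chosen after the data were seen. Over genes past the filter, the share of calls that were higher was 30.4%, 66.5%, 38.1% and 74.6% (by construct in HFD and NC, then by diet with shNrf3 and shCtrl), 45.2%, 54.3%, 40.4% and 53.4% after cyclic loess, 25.2%, 74.6%, 33.0% and 81.8% after centring on array medians, and 57.8%, 46.5%, 54.2% and 45.7% after centring on the genes past the filter. After loess 3 members were lower by construct in HFD and 1 in NC, 1 was lower in both diets, the shCtrl diet median was 0.0, and the construct by diet difference had 2 members above, 4 below and a median of 0.0. After array centring that diet median was 0.32, with 0 members above by construct by diet and a median of -0.33. After centring on the genes past the filter 2 members were lower by construct in HFD and 2 by diet with shNrf3, the shCtrl diet median was 0.0, and 3 lay above and 4 below by construct by diet (median 0.0). With no floor 2 were lower by construct in NC (median 0.25), 3 by diet with shCtrl, and 4 lay above by construct by diet (median -0.31). At 2-fold 2 were lower by construct in HFD, 1 higher and 1 lower by diet with shNrf3, 0 lower with shCtrl, 1 higher by construct in both diets (Decr1), and 0 above and 4 below by construct by diet. Over the 21 members past the filter the NC median by construct was 0.25 and the construct by diet median -0.38. Over the 12 past the 75th percentile, by construct 0 were higher and 3 lower in HFD and 1 was higher in NC; by diet 0 were higher and 1 lower with shNrf3 and 3 higher with shCtrl; 0 were higher in both diets or with both constructs, and by construct by diet 0 lay above and 5 below (median -0.39), since neither Cpt1a nor Decr1 is among them. Limma called 9 genes for construct and 1 for diet after loess, and 27 and 11 after centring on the genes past the filter, with 0 members among them. No paired analysis was possible because each group has 1 array and the labels carry no replicate numbers. Differences of members whose readings lie within the range of the negative control rows, Cpt1a and Decr1 included, are not resolved from the spread of those rows between arrays.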
